A study of Homo sapiens with 9 samples.

Results

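The genes described here are 43 genes of the unfolded protein response and of the ATF4 stress programme, chosen by name for what their products do. The ATF4 arm holds 20 of them (kinases and transcription factors, feedback and effector genes, and enzymes of amino acid and one-carbon metabolism). The ER chaperone arm holds 23 (sensors and transcription factors, chaperones and folding enzymes, J-domain cochaperones, and genes of ER-associated degradation). Each gene was read from 1 probe set annotated to that symbol alone, the one with the highest mean over the 9 arrays. A probe set of this kind was found for 42 of the 43, and 41 of these were bright enough to be tested, among 12036 genes tested in all. SYVN1 has a probe set shared with another symbol and is not analysed here, and NUPR1 fell below the limit on dim probe sets.

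Total RNA of HEK293 cells, a widely used line from human embryonic kidney, was measured on 9 one-colour oligonucleotide arrays, 3 per group. Knock Down cells received siRNA against hMOF, Over Expression cells received a plasmid encoding hMOF, and Wild type cells had no treatment. KAT8 encodes hMOF, the enzyme that places the H4K16ac mark on histones, and the comparisons ask which transcripts differ when its level is lowered or raised. The design text names a control treated with double-stranded RNA against EGFP, of which no sample was analysed here. Both comparisons with Wild type therefore set transfected against untreated cells, and transfection and the change in hMOF cannot be told apart in them. Knock Down and Over Expression cells were both transfected, but with different nucleic acids. The labels do not say whether replicates were separate cultures, so the p-values rest on a spread between samples that may be technical.

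The unfolded protein response is how a cell reacts to misfolded protein in the endoplasmic reticulum (ER). The sensors IRE1 (ERN1) and ATF6 raise chaperones and degradation factors through spliced XBP1 and cleaved ATF6, and the kinase PERK (EIF2AK3) phosphorylates the translation factor eIF2. Phosphorylated eIF2 slows protein synthesis in general while it favours translation of ATF4, a transcription factor for amino acid synthesis, amino acid transport and, under lasting stress, cell death genes. GCN2 (EIF2AK4) reaches the same step when amino acids are short, so ATF4 targets can move without the ER chaperones. Splicing of XBP1, cleavage of ATF6 and translation of ATF4 are not seen by signals that measure transcript abundance.

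The arms are also known for different promoter elements, and those of 5 members that passed a test below (ASNS, CHAC1, HERPUD1, CRELD2 and CANX) are shown here beside that of HSPA5, the usual marker of the response. RefSeq promoter windows (GRCh38.p14, 250 bases before to 50 after the start) were found for 37 of the 43 members and searched on both strands. The ER stress response element, CCAAT and CCACG with 9 bases of any kind between them, was in 6 of the 21 ER chaperone arm promoters, in 0 of the 16 ATF4 arm promoters and in 0.0769% of all 35116 promoters. Its variant, ATTGG and CCACG with 1 base between them, was in 3 ER chaperone arm promoters (HYOU1, HERPUD1 and SDF2L1) and in 0.0541% of all. The C/EBP-ATF composite core to which ATF4 binds with a C/EBP partner, TGATGNAA, was in 3 of the 16 ATF4 arm promoters (ASNS, CHAC1 and PPP1R15B), in HERPUD1 of the other arm, and in 3.62% of all. The core of the XBP1 and ATF6 site, TGACGTGG, was in HYOU1 alone of these members, overlapping its ATTGG element, and in 0.729% of all. In the stretches below, 5′ to 3′ on the strand of the gene, capitals mark the element:
ASNS, chr7:97872449-97872496, minus strand, C/EBP-ATF core: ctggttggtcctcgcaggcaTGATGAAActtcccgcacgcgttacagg
CHAC1, chr15:40953242-40953289, plus strand, C/EBP-ATF core read on the opposite strand: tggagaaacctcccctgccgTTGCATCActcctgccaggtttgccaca
HERPUD1, chr16:56931946-56932055, plus strand, C/EBP-ATF core on the opposite strand and then the ATTGG element: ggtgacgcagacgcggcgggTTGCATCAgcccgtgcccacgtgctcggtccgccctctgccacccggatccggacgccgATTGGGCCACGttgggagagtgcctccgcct
CRELD2, chr22:49918534-49918592, plus strand, ER stress response element on the opposite strand: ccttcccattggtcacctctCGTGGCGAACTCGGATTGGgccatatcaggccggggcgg
CANX, chr5:179698758-179698816, plus strand, ER stress response element: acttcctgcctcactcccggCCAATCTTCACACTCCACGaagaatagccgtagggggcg
HSPA5, chr9:125241371-125241429, minus strand, ER stress response element: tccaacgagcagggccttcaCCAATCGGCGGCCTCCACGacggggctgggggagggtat

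All 6 stretches lie upstream of the annotated start. The ASNS core, at -68 to -61 from the start, is the known nutrient-sensing element of that gene, and the HSPA5 element, at -66 to -48, is one of the sites through which ER stress is known to raise this chaperone. XBP1, CALR and HSP90B1 are the other members with the ER stress response element. No match was found for the other 8 members that passed a test. A window was found for only 37 of the 43 members, so a member without one, or with an element outside the 300 bases, gives no match here. A match describes the sequence and does not show that a factor was bound.

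KAT8 itself gave a signal of 432, 706 and 517 in Knock Down cells, 4594, 4727 and 4763 in Over Expression cells, and 2909.5, 3797 and 3249 in Wild type cells. It was 6.10-fold lower in Knock Down than in Wild type cells (log2 change -2.61, SE 0.17, limma adjusted p = 4.72e-05). In Over Expression cells its 3 arrays lay above those of Wild type cells, but the log2 difference of 0.51 did not pass (limma adjusted p = 0.259). Of 7 genes that mark HEK293 cells, 6 were bright enough to test, with a summed signal of 95369 to 109058 in Knock Down, 90027 to 106805 in Over Expression and 98543 to 102899.8 in Wild type arrays, and KRT8 and PAX2 were lower in Knock Down cells in both comparisons and KRT18 also against Over Expression cells (3 of 6 there). LHX1 was dim. Markers of blood, endothelial, liver and fibroblast cells had a probe set for 4 of 6 genes and summed to 291 to 372, 276 to 431 and 378 to 482 in the same 3 groups, most of it from PECAM1. Fewer cells of a kind and less RNA per cell cannot be told apart in these bulk samples. The 3 replicate 1 arrays stood apart, with added poly-A control transcripts at a geometric mean signal of 799.8 to 897 against 1721 to 2103 in the other 6 arrays, and the 3'/5' signal ratio of ACTB, a sign of RNA quality, was 1.21 to 1.31 in Knock Down, 1.18 to 1.38 in Over Expression and 1.39 to 1.43 in Wild type arrays. The part of either in the results was not tested.

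In Knock Down cells members of the ATF4 arm passed in both directions. Asparagine synthetase and mitochondrial ALDH1L2 fell against Wild type cells while PPP1R15A, STC2 and SHMT2 rose, and in the ER chaperone arm only CRELD2 and SEL1L passed, both lower. That makes 7 of the 41 tested members (17.1%), 3 higher and 4 lower, where 15.7% of all 27307 probe sets passed, 6.82% higher and 8.89% lower. In Over Expression against Wild type cells 1 member passed (2.44%), PPP1R15A, higher, where 0.476% of all probe sets passed, 0.319% higher and 0.157% lower. Between Knock Down and Over Expression cells 10 members passed (24.4%), 3 higher and 7 lower in Knock Down, against 14.5% of all probe sets, 5.75% higher and 8.76% lower. In all, 13 members passed in at least 1 comparison and 28 in none, and ASNS, CRELD2, SEL1L and SHMT2 passed in both comparisons that involve Knock Down cells. These comparisons share their arrays, so their calls are not independent of each other.

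**Figure D1:**
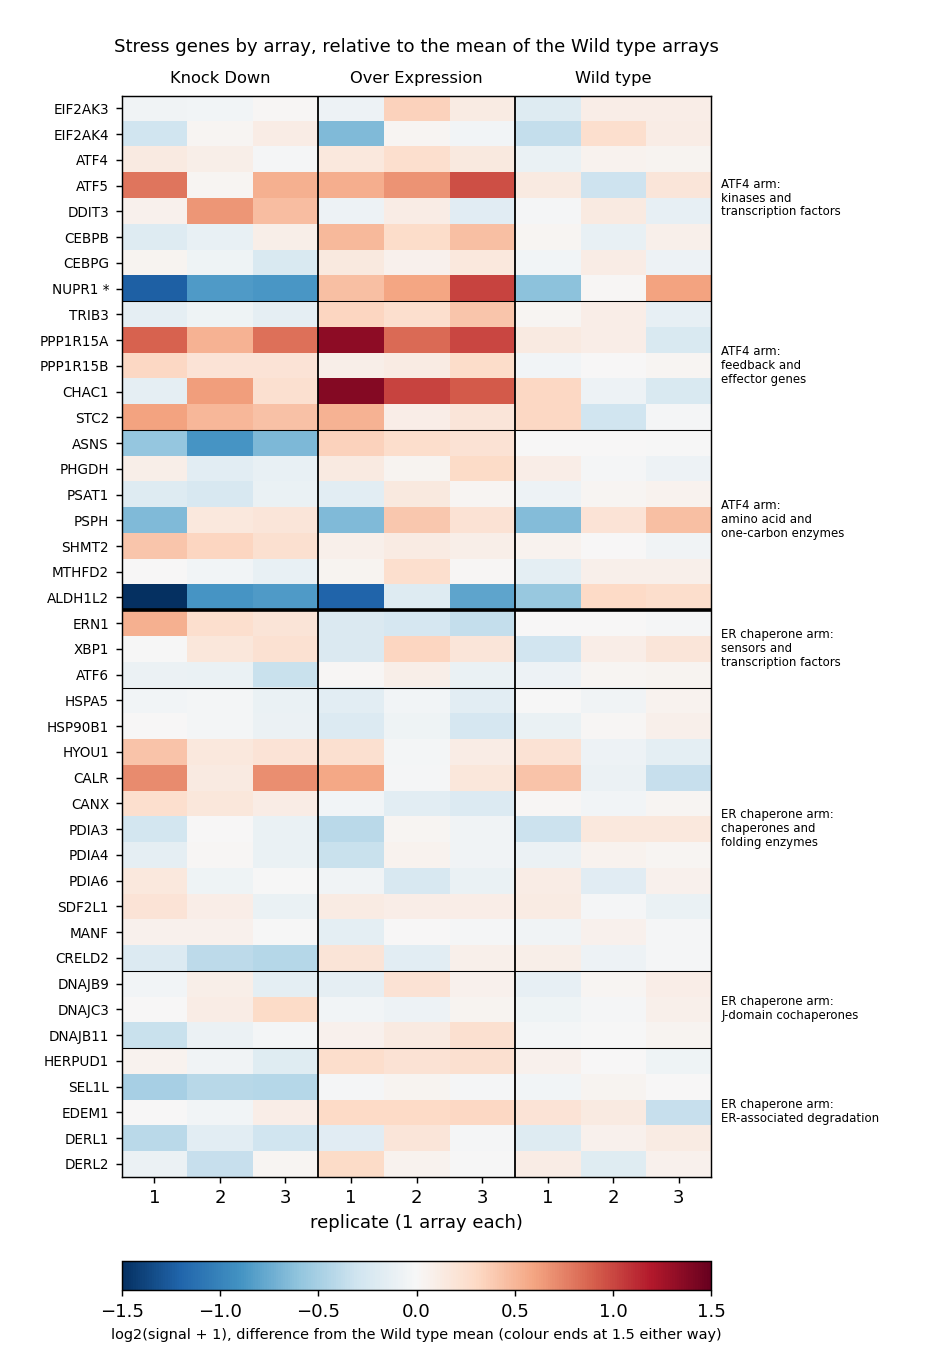
Heat map of the 42 measured members (rows, grouped by arm and role) over the 9 arrays (columns, replicates 1 to 3 of Knock Down, Over Expression and Wild type), coloured by log2(signal + 1) minus the mean of the 3 Wild type arrays, with colours ending at 1.5 in either direction. ASNS, ALDH1L2, CRELD2 and SEL1L are lower in Knock Down arrays and PPP1R15A higher in Knock Down and Over Expression arrays. ALDH1L2 is lower in the mean of the Over Expression arrays too, without a call. The asterisk marks NUPR1, which was not tested.

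Read over the arms, the ATF4 arm had a median log2 change of -0.05 in Knock Down against Wild type cells, 0.16 in Over Expression against Wild type cells and -0.18 in Knock Down against Over Expression cells. The ER chaperone arm had medians of -0.04, 0.00 and 0.03 in the same order, and all tested probe sets 0.01, 0.01 and -0.01. Of the 19 tested ATF4 arm members, 11, 4 and 14 had a log2 change below 0 in these 3 comparisons, against 49.0%, 47.6% and 51.6% of all tested probe sets. Of the 22 tested ER chaperone arm members, 12, 9 and 10 did.

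The 3 arrays of one group lay entirely above or below those of the other for 12 members in Knock Down against Wild type cells (29.3%, against 35.2% of all probe sets). They did so for 13 members in Over Expression against Wild type cells (31.7%, against 17.6%) and for 15 in Knock Down against Over Expression cells (36.6%, against 33.7%). In the ATF4 arm 9 of 19 were apart in Over Expression against Wild type cells, every one of the 9 higher, where 9.92% of all probe sets lay apart and higher. Against Over Expression cells, 7 ATF4 arm members and 5 ER chaperone arm members lay entirely lower in Knock Down cells, where 18.7% of all probe sets did. In the Over Expression comparison only PPP1R15A of these passed the test across all probe sets.

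**Figure D2:**
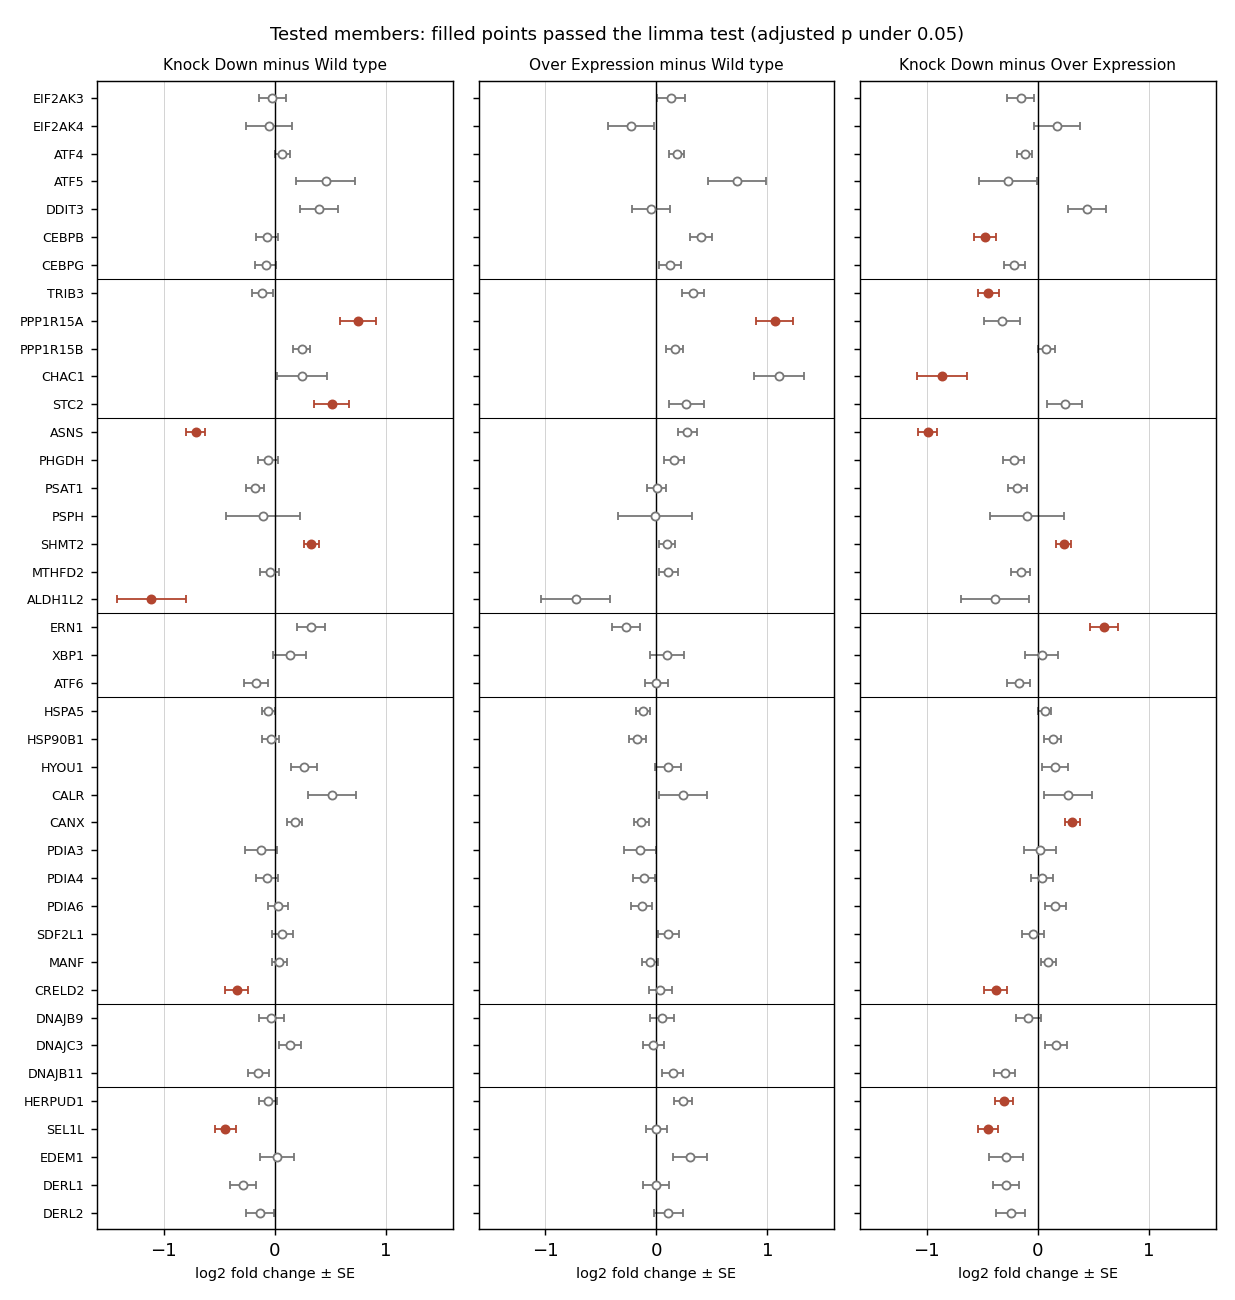
Log2 fold change with its standard error (points and bars) for the 41 tested members, 1 panel for each comparison, with filled points for limma calls at an adjusted p under 0.05. The 7 calls of Knock Down against Wild type and the 10 of Knock Down against Over Expression lie on both sides of 0, and PPP1R15A is the single filled point of Over Expression against Wild type.

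None of the kinases and transcription factors at the head of the ATF4 arm passed against Wild type cells. ATF4, the arm's central factor, gave 61859.9, 59975 and 55881 in Knock Down cells, 62979, 67118 and 62515 in Over Expression cells, and 52899, 58632 and 58153 in Wild type cells. The 3 Over Expression arrays were above all others, and the Knock Down and Wild type arrays overlapped. The log2 changes were 0.07 (SE 0.07), 0.18 (SE 0.07) and -0.12 (SE 0.07) for Knock Down against Wild type, Over Expression against Wild type and Knock Down against Over Expression, with limma adjusted p of 0.537, 0.295 and 0.271. After quantile normalization the last of these passed (limma adjusted p = 0.0187, with 0.0187 to 0.517 over 7 alternative settings).

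EIF2AK3, which encodes PERK, gave 3752, 3779 and 3922 in Knock Down cells, 3684, 4929 and 4223 in Over Expression cells, and 3395, 4143 and 4149.5 in Wild type cells. EIF2AK4, which encodes GCN2, gave 2312, 2911 and 3073 in Knock Down cells, 1796, 2898 and 2773 in Over Expression cells, and 2223, 3388 and 3075 in Wild type cells. The groups overlapped for both kinases in every comparison, and EIF2AK4 was lowest in the replicate 1 array of each group. The largest of their log2 differences in these probe sets was -0.23 (SE 0.21, EIF2AK4 in Over Expression against Wild type cells). A dimmer probe set of EIF2AK4 gave larger ones, 0.46 in Knock Down against Wild type and 0.65 against Over Expression cells (SE 0.29). Neither passed (limma adjusted p = 0.306 and 0.16).

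CEBPB, a partner of ATF4 on the composite element, gave 6646, 7013 and 8076 in Knock Down cells, 10576, 9188 and 10366 in Over Expression cells, and 7747, 7006 and 8016 in Wild type cells. All 3 Over Expression arrays were above every other array. CEBPB was 1.39-fold lower in Knock Down than in Over Expression cells (log2 change -0.47, SE 0.10, limma adjusted p = 0.0104), while the log2 difference of 0.40 between Over Expression and Wild type cells did not pass (limma adjusted p = 0.129). CEBPG, another such partner, had log2 differences of -0.08, 0.12 and -0.21 in the order of comparisons used above, and none passed.

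DDIT3, which encodes the death-associated factor CHOP and is a standard readout of this branch, gave 838, 1273 and 1108 in Knock Down cells, 759.8, 868 and 711 in Over Expression cells, and 793, 884 and 739 in Wild type cells. Knock Down replicates 2 and 3 were above all other arrays and Knock Down replicate 1 was not. The log2 differences were 0.40 (SE 0.17) against Wild type and 0.44 (SE 0.17) against Over Expression cells, with limma adjusted p of 0.15 and 0.115. In replicates 2 and 3 alone the second passed, as it did with the replicate number as a block (limma adjusted p = 0.0452, the lowest of 7 alternative settings that ran up to 0.199).

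ATF5, a related factor under ATF4 control, had a log2 difference of 0.72 (SE 0.26) in Over Expression against Wild type cells with all 3 Over Expression arrays higher, and missed the threshold (limma adjusted p = 0.296). NUPR1, a stress-inducible chromatin protein, was dim, at 82.9, 108 and 106 in Knock Down cells, 267, 294 and 394 in Over Expression cells, and 126, 196 and 297 in Wild type cells. Its Knock Down arrays were below every other array. In a fit without the limit on dim probe sets, in which 5.47% of all probe sets passed, NUPR1 was lower in Knock Down than in Over Expression cells (log2 change -1.67, SE 0.40, limma adjusted p = 0.0303) and did not pass against Wild type cells (limma adjusted p = 0.2).

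Among the feedback and effector genes, PPP1R15A was the only member that passed as higher than Wild type in both treated groups. It encodes GADD34, the subunit that directs a phosphatase to eIF2 and so ends the block on translation. PPP1R15A gave 1962, 1526 and 1871 in Knock Down cells, 2695, 1908 and 2118 in Over Expression cells, and 1158, 1135 and 903 in Wild type cells. Every treated array was above every Wild type array, and the treated groups overlapped. It was 1.68-fold higher in Knock Down than in Wild type cells (log2 change 0.75, SE 0.16, limma adjusted p = 0.0123) and 2.09-fold higher in Over Expression than in Wild type cells (log2 change 1.07, SE 0.16, limma adjusted p = 0.019). A further probe set of the gene gave log2 changes of 1.17 and 1.31 and passed in both. Leaving out single arrays ended the Over Expression call in 4 of 6 fits (without Over Expression replicates 1 or 3, or Wild type replicates 2 or 3), at most at a limma adjusted p of 0.0988, and the Knock Down call in 1 of 6 (without Knock Down replicate 3, 0.0506). PPP1R15B, the constitutive counterpart of GADD34, was higher in the 3 Knock Down arrays (11729 to 12603) and the 3 Over Expression arrays (10837 to 12342) than in the Wild type arrays (9896 to 10395). Its log2 difference of 0.24 between Knock Down and Wild type cells missed the threshold (limma adjusted p = 0.0565) and passed with the replicate number as a block.

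CHAC1, which degrades glutathione and is among the most ATF4-dependent transcripts known, gave 508, 868 and 664 in Knock Down cells, 1455, 1132 and 1062 in Over Expression cells, and 694, 529.6 and 478 in Wild type cells. Each Over Expression array was above all other arrays, and Knock Down and Wild type arrays overlapped. CHAC1 was 1.81-fold lower in Knock Down than in Over Expression cells (log2 change -0.86, SE 0.22, limma adjusted p = 0.0265). Against Wild type cells its log2 difference in Over Expression cells was 1.10 (SE 0.22), the highest of any tested member in that comparison, at a limma adjusted p of 0.0691. It passed in replicates 2 and 3 alone and under the replicate block. For these groups the check of pairing fell short at replicate 3 (correlation of 0.083). The call against Over Expression ended in 5 of 6 leave-one-out fits (all but that without Knock Down replicate 2), at most at 0.0801 without Over Expression replicate 1, and in replicates 2 and 3 alone.

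TRIB3, a pseudokinase induced by ATF4 and CHOP that feeds back on ATF4, gave 2744, 2874 and 2740.3 in Knock Down cells, 3762, 3582 and 4029.6 in Over Expression cells, and 3074, 3218 and 2757 in Wild type cells. Its 3 Over Expression arrays were again the highest of the 9. TRIB3 was 1.36-fold lower in Knock Down than in Over Expression cells (log2 change -0.44, SE 0.10, limma adjusted p = 0.0133, with -0.69 and no call in another probe set), a call that ended without Over Expression replicate 3 or without Knock Down replicate 3 (at most 0.0653). STC2, a secreted glycoprotein induced by ER stress, gave 4286, 3979 and 3812 in Knock Down cells, 4048, 3023 and 3209.7 in Over Expression cells, and 3505, 2292 and 2794 in Wild type cells. The Knock Down arrays were all above the Wild type arrays, and the Over Expression arrays overlapped both. STC2 was 1.43-fold higher in Knock Down than in Wild type cells at the edge of the threshold (log2 change 0.51, SE 0.16, limma adjusted p = 0.0493), and this call held in 1 of 6 leave-one-out fits, that without Wild type replicate 1, reaching 0.176 without Wild type replicate 2. Another probe set of STC2 gave a log2 difference of 0.30 there and did not pass.

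**Figure D3:**
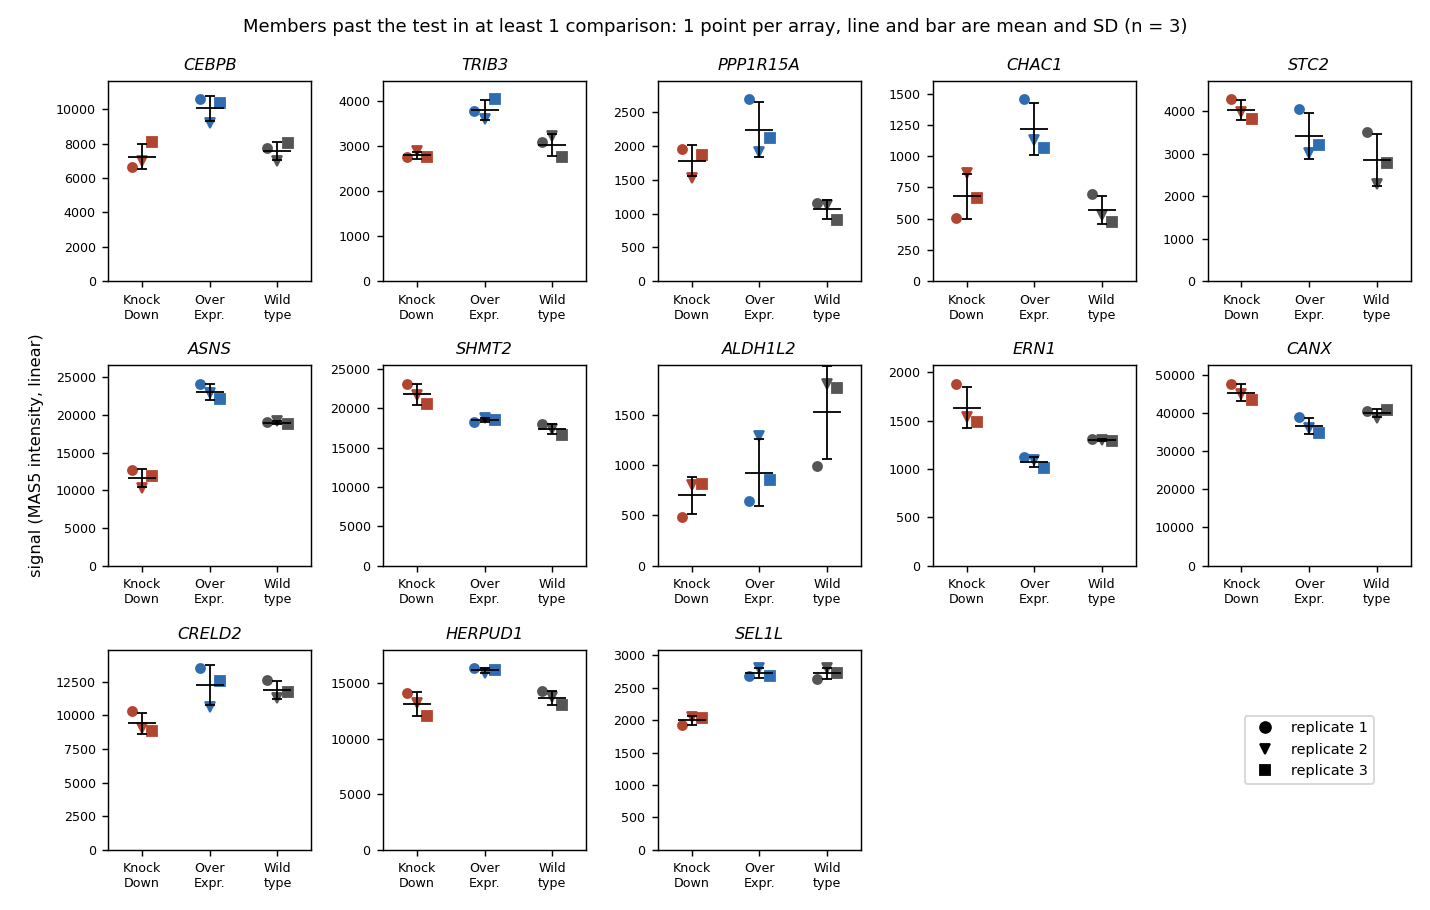
Signal (MAS5 intensity, linear axis from 0) of the 13 members that passed in at least 1 comparison, with 1 point per array (circle, triangle and square for replicates 1, 2 and 3) and the mean and SD of 3 arrays in black. ASNS is lowest in the Knock Down arrays and highest in the Over Expression arrays with no overlap. SEL1L, in the probe set shown, is level in Over Expression and Wild type cells and lower in Knock Down cells alone.

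The amino acid and one-carbon enzymes held the smallest adjusted p of either arm. ASNS, which makes asparagine from aspartate and glutamine and is a classic ATF4 target, gave 12732, 10275 and 11886 in Knock Down cells, 24177, 22886 and 22055 in Over Expression cells, and 19004, 19133 and 18851 in Wild type cells. No array of any group overlapped another group. ASNS was 1.64-fold lower in Knock Down than in Wild type cells (log2 change -0.71, SE 0.08, limma adjusted p = 0.000558) and 1.99-fold lower than in Over Expression cells (log2 change -0.99, SE 0.08, limma adjusted p = 0.000122). The log2 difference of 0.28 (SE 0.08) between Over Expression and Wild type cells did not pass (limma adjusted p = 0.225). Both Knock Down calls were kept in all 6 leave-one-out fits of their comparison. Its promoter carries the composite core printed above, as do those of CHAC1, HERPUD1 and PPP1R15B. CHAC1 and HERPUD1 were also lower in Knock Down than in Over Expression cells, in calls that each held in 1 of 6 leave-one-out fits, and PPP1R15B was not. CEBPB, TRIB3, CRELD2 and SEL1L were lower there too, with no match to this core found. Whether the core had a part in these differences was not tested.

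In the serine pathway no member passed in the fit over all arrays. PHGDH, PSAT1 and PSPH, the enzymes that make serine from a glycolytic intermediate, had log2 differences of -0.06, -0.18 and -0.11 in Knock Down against Wild type cells and of -0.22, -0.18 and -0.09 in Knock Down against Over Expression cells. PHGDH passed as lower than in Over Expression cells under the replicate block, and PHGDH and PSAT1 did in replicates 2 and 3 alone. The 3 Knock Down arrays of PSAT1 (24081 to 26541) were below the Wild type arrays (26991 to 29565), and another probe set of PSAT1 passed as lower in Knock Down cells (log2 change -0.34 against Wild type and -0.48 against Over Expression cells, limma adjusted p = 0.034 and 0.00799), as did the mean of its probe sets. PSPH showed the replicate 1 arrays plainly, at 2440.4 in Knock Down, 2436 in Over Expression and 2454 in Wild type replicate 1, against 4289.5 to 5253 in the other 6 arrays.

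Mitochondrial one-carbon enzymes went both ways. SHMT2, which splits serine into glycine and a one-carbon unit, gave 23169.8, 21659 and 20516 in Knock Down cells, 18211, 18820.2 and 18499 in Over Expression cells, and 17978, 17406 and 16668 in Wild type cells, with the 3 groups in that order and none overlapping. SHMT2 was 1.25-fold higher in Knock Down than in Wild type cells (log2 change 0.33, SE 0.07, limma adjusted p = 0.011), and 2 further probe sets of the gene passed as well. It was also 1.18-fold higher than in Over Expression cells (log2 change 0.23, SE 0.07, limma adjusted p = 0.0467), a call that ended in all 6 leave-one-out fits (at most 0.133), in replicates 2 and 3 alone, with quantile normalization and with no limit on dim probe sets.

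ALDH1L2, which oxidizes formyl-tetrahydrofolate in mitochondria, gave 482, 796 and 811 in Knock Down cells, 637, 1286 and 848 in Over Expression cells, and 989, 1808 and 1764 in Wild type cells. The Knock Down arrays were below the Wild type arrays, and the replicate 1 array was the lowest of each group. ALDH1L2 was 2.16-fold lower in Knock Down than in Wild type cells (log2 change -1.11, SE 0.31, limma adjusted p = 0.033). Its 2 other tested probe sets gave -0.21 and -0.31 and did not pass, and the mean of the 3 gave -0.55. That call held in 1 of 6 leave-one-out fits, that without Wild type replicate 1, and reached 0.12 without Wild type replicate 2. In Over Expression against Wild type cells ALDH1L2 had the lowest log2 difference of the tested members, -0.73 (SE 0.31, limma adjusted p = 0.372). Its Over Expression arrays overlapped both other groups. MTHFD2, the dehydrogenase of the same pathway, had log2 differences of -0.05, 0.11 and -0.15, and none passed.

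In the ER chaperone arm the sensor ERN1 differed between the treated groups. ERN1, which encodes IRE1, gave 1886, 1544 and 1482 in Knock Down cells, 1119.5, 1090.1 and 1014 in Over Expression cells, and 1308, 1300.0 and 1287 in Wild type cells. The groups did not overlap, with Wild type cells between the treated ones. ERN1 was 1.52-fold higher in Knock Down than in Over Expression cells (log2 change 0.60, SE 0.13, limma adjusted p = 0.0104), and neither difference from Wild type cells passed (log2 0.33 and -0.27, limma adjusted p = 0.105 and 0.417). With the mean of the gene's tested probe sets in place of the brightest, the call between the treated groups was lost, and the 2 other probe sets gave log2 differences of 0.58 and 0.08 and did not pass.

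XBP1, the factor that IRE1 splices, gave 9015, 10156 and 10591 in Knock Down cells, 7781, 11325 and 10247 in Over Expression cells, and 7399, 9713 and 10261 in Wild type cells. ATF6 gave 2764, 2744 and 2339 in Knock Down cells, 2976, 3124 and 2734 in Over Expression cells, and 2799, 2994 and 3032 in Wild type cells. XBP1 overlapped between all groups, and ATF6 was below the Wild type arrays in all 3 Knock Down arrays. Neither passed in any comparison, with log2 differences from -0.17 to 0.13.

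Of the 11 chaperones and folding enzymes, 1 passed in Knock Down against Wild type cells (9.09%, against 15.7% of all probe sets) and 2 in Knock Down against Over Expression cells (18.2%, against 14.5%). HSPA5, which encodes BiP, the main ER chaperone and the usual marker of this response, gave 48957, 49194 and 47060.0 in Knock Down cells, 45154, 49076 and 45044 in Over Expression cells, and 50282, 48720.5 and 52232 in Wild type cells. The groups overlapped, and the log2 differences were -0.06, -0.12 and 0.06 (SE 0.06 each), none of which passed. A dimmer probe set of HSPA5 gave a different picture, lower in Knock Down than in Over Expression cells (log2 change -0.67, limma adjusted p = 0.0151), so the gene's value depends on the probe set read. With the mean of its tested probe sets, HSPA5 passed as lower in both Knock Down comparisons (limma adjusted p = 0.0336 against Wild type and 0.0208 against Over Expression cells). Read from the brightest probe set of each gene, CANX and CRELD2 were the members of this role that passed in a comparison, and the other 9 passed in none.

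CANX, which encodes the lectin chaperone calnexin, gave 47713, 44962 and 43264 in Knock Down cells, 38844, 35969.9 and 34765 in Over Expression cells, and 40627, 38777 and 40722 in Wild type cells. The Knock Down arrays were above all others, and Over Expression and Wild type arrays overlapped at 1 array. CANX was 1.24-fold higher in Knock Down than in Over Expression cells (log2 change 0.31, SE 0.07, limma adjusted p = 0.0109), and its 3 other tested probe sets passed there in the same direction with log2 changes of 0.44 to 0.76. The call ended without Over Expression replicate 3 (limma adjusted p = 0.054). Against Wild type cells the difference of 0.18 missed the threshold (limma adjusted p = 0.0937), but 2 of the other probe sets passed as higher there (log2 changes 0.39 and 0.49, limma adjusted p = 0.0116 and 0.0433), and so did CANX under the replicate block and with the mean of its probe sets.

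CRELD2, a secreted ER protein strongly induced by ER stress, gave 10295, 9034 and 8852 in Knock Down cells, 13539, 10612 and 12559 in Over Expression cells, and 12624, 11289 and 11763 in Wild type cells. Its Knock Down arrays were below every other array. CRELD2 was 1.27-fold lower in Knock Down than in Wild type cells (log2 change -0.34, SE 0.10, limma adjusted p = 0.0451) and 1.30-fold lower than in Over Expression cells (log2 change -0.38, SE 0.10, limma adjusted p = 0.0323). Without Knock Down replicate 3 both calls ended (0.142 and 0.112), and they held in 1 and in 2 of 6 leave-one-out fits. CANX and CRELD2, whose promoters both hold the ER stress response element, differed in opposite directions between Knock Down and Over Expression cells. Whether the element had a part in either difference was not tested. Of the other 4 members with that element, HSPA5, HSP90B1, CALR and XBP1, none passed when read from the brightest probe set. With the mean of a gene's probe sets HSPA5 passed as lower in both Knock Down comparisons, and CALR as higher in Knock Down than in Wild type cells.

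The remaining chaperones showed log2 differences from -0.17 (HSP90B1, the ER member of the HSP90 family, in Over Expression against Wild type cells) to 0.51 (CALR, the soluble lectin chaperone calreticulin, in Knock Down against Wild type cells). CALR varied widely within groups, at 12953 to 19359.9 in Knock Down, 11636 to 17598 in Over Expression and 9319.7 to 15934 in Wild type arrays. CALR and HYOU1, a large HSP70-like chaperone with a log2 difference of 0.26, did not pass against Wild type cells in the fit over all arrays. Both passed as higher in Knock Down cells under the replicate block and in replicates 2 and 3 alone. CALR also passed there with the mean of its probe sets, as did another of its probe sets (log2 change 0.59, limma adjusted p = 0.0479). The disulfide isomerases PDIA3, PDIA4 and PDIA6, the cochaperone complex protein SDF2L1 and the secreted factor MANF had log2 differences between -0.14 and 0.16 in all comparisons.

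Of the 3 J-domain cochaperones, which stimulate the ATPase of BiP, none passed. DNAJB11 came nearest, with 5749.5, 6798 and 7060.1 in Knock Down cells, 7548, 7948 and 8541 in Over Expression cells, and 7048, 7191 and 7429 in Wild type cells. Its Over Expression arrays were above all others, and its log2 difference of -0.30 between Knock Down and Over Expression cells had a limma adjusted p of 0.06 and passed with the replicate number as a block. DNAJB9 and DNAJC3 had log2 differences from -0.08 to 0.16.

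The genes of ER-associated degradation, which carries misfolded proteins back to the cytosol, had a log2 difference below 0 in all 5 tested members in Knock Down against Over Expression cells, from -0.24 (DERL2) to -0.45 (SEL1L). Of all tested probe sets 51.6% were below 0 there. SEL1L and HERPUD1 passed, 2 of 5, against 14.5% of all probe sets. SEL1L, the adaptor of the HRD1 ubiquitin ligase, gave 1922, 2049 and 2030.1 in Knock Down cells, 2683, 2809.5 and 2685 in Over Expression cells, and 2642, 2808 and 2724 in Wild type cells. The Knock Down arrays lay below all others, and Over Expression and Wild type arrays overlapped. SEL1L was 1.36-fold lower in Knock Down cells than in each of the others (log2 change -0.45, SE 0.09 in both, limma adjusted p = 0.00983 against Wild type and 0.00994 against Over Expression cells). Its log2 difference between Over Expression and Wild type cells was 0.00 (SE 0.09). Both calls held in every leave-one-out fit, and that against Over Expression cells was lost with the mean of its tested probe sets. Its 2 other tested probe sets gave -0.22 and -0.40 against Wild type and -0.34 and -0.01 against Over Expression cells, and did not pass. In Over Expression against Wild type cells they gave 0.12 and -0.39 and did not pass either.

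HERPUD1, which organizes the same ligase complex, gave 14141, 13179.5 and 12048 in Knock Down cells, 16377, 15881 and 16183 in Over Expression cells, and 14306, 13704 and 13031 in Wild type cells. The Over Expression arrays were above all others. HERPUD1 was 1.23-fold lower in Knock Down than in Over Expression cells (log2 change -0.30, SE 0.08, limma adjusted p = 0.0258). The call held in 1 of 6 leave-one-out fits, that without Knock Down replicate 1, and was at 0.0981 without Knock Down replicate 3. EDEM1, a lectin that extracts misfolded glycoproteins, was higher in the 3 Over Expression arrays (1217 to 1231) than in the Knock Down arrays (965 to 1059) or the Wild type arrays (779 to 1147) and did not pass. DERL1 and DERL2, membrane proteins of the retrotranslocation machinery, had log2 differences of -0.29 and -0.14 in Knock Down against Wild type cells, and neither passed, although DERL1 passed as lower in both Knock Down comparisons under the replicate block and in replicates 2 and 3 alone. Another probe set of DERL1 passed as lower in both as well (log2 changes -0.28 and -0.39).

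With the replicate number as a block, 12 members passed in Knock Down against Wild type cells, where 28.0% of all probe sets did, and the ER chaperone arm went to 6 calls in place of 2, through CANX, HYOU1 and CALR (higher) and DERL1 (lower). In Knock Down against Over Expression cells 14 members passed, where 26.9% of all probe sets did, with DDIT3 (higher), PHGDH, DERL1 and DNAJB11 (lower) added. In replicates 2 and 3 alone 10 members passed against Wild type cells (19.1% of all probe sets) and 12 against Over Expression cells (18.0%).

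Genes around these members were read from 4 lists of the same pathways. Of 29 other ATF4 targets, 25 were tested. In Knock Down against Wild type cells 8 were higher and 2 lower (40.0%, where 15.7% of all probe sets passed), with a list median of 0.23. In Over Expression against Wild type cells 3 were higher and 1 lower (16.0%, against 0.476% of all probe sets, median 0.18), and in Knock Down against Over Expression cells 4 were higher and 3 lower (28.0%, against 14.5%, median -0.02).

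Amino acid carriers moved apart within that list. SLC7A5, the light chain of the large neutral amino acid carrier, gave 8439, 8688 and 9104 in Knock Down cells, 6176, 5345 and 6952 in Over Expression cells, and 4936, 3474 and 3919 in Wild type cells, with no overlap. It was 2.15-fold higher in Knock Down than in Wild type cells (log2 change 1.10, SE 0.13, limma adjusted p = 0.000623), and SLC3A2, its heavy chain, was higher in Knock Down and in Over Expression than in Wild type cells (log2 changes 0.83 and 0.99, SE 0.13, limma adjusted p = 0.00258 and 0.00935). SLC7A11, the light chain of the cystine carrier, gave 1187, 1165 and 1279 in Knock Down cells, 2133, 2188 and 2352 in Over Expression cells, and 2039, 1906 and 1935 in Wild type cells. Like ASNS, it was lower in Knock Down cells in both comparisons (log2 changes -0.70 and -0.88, SE 0.11, limma adjusted p = 0.00204 and 0.000639).

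DDIT4, an inhibitor of mTOR signalling, gave 26470.2, 25072 and 24864 in Knock Down cells, 12068, 11511 and 11638 in Over Expression cells, and 15802, 15924 and 14254 in Wild type cells, again with no overlap. DDIT4 was 1.66-fold higher in Knock Down than in Wild type cells (log2 change 0.73, SE 0.07, limma adjusted p = 0.000208) and lower in Over Expression than in Wild type cells (log2 change -0.38, SE 0.07, limma adjusted p = 0.0469). ATF3, a stress-induced repressor, gave 4684, 4562 and 4632 in Knock Down cells, 8792, 7050.1 and 7563 in Over Expression cells, and 3479, 3016 and 3401 in Wild type cells. Like PPP1R15A, it was higher than Wild type in both treated groups (log2 changes 0.49 in Knock Down and 1.24 in Over Expression cells, SE 0.10, limma adjusted p = 0.00978 and 0.00042), and unlike PPP1R15A it passed as lower in Knock Down than in Over Expression cells (log2 change -0.75, limma adjusted p = 0.00125). NIBAN1, a stress-induced regulator of translation, was higher in Knock Down than in Over Expression cells (log2 change 1.15, SE 0.14, limma adjusted p = 0.000738), and VEGFA, the angiogenic growth factor, was higher in Over Expression than in Wild type cells (log2 change 0.68, SE 0.13, limma adjusted p = 0.0491).

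**Figure D4:**
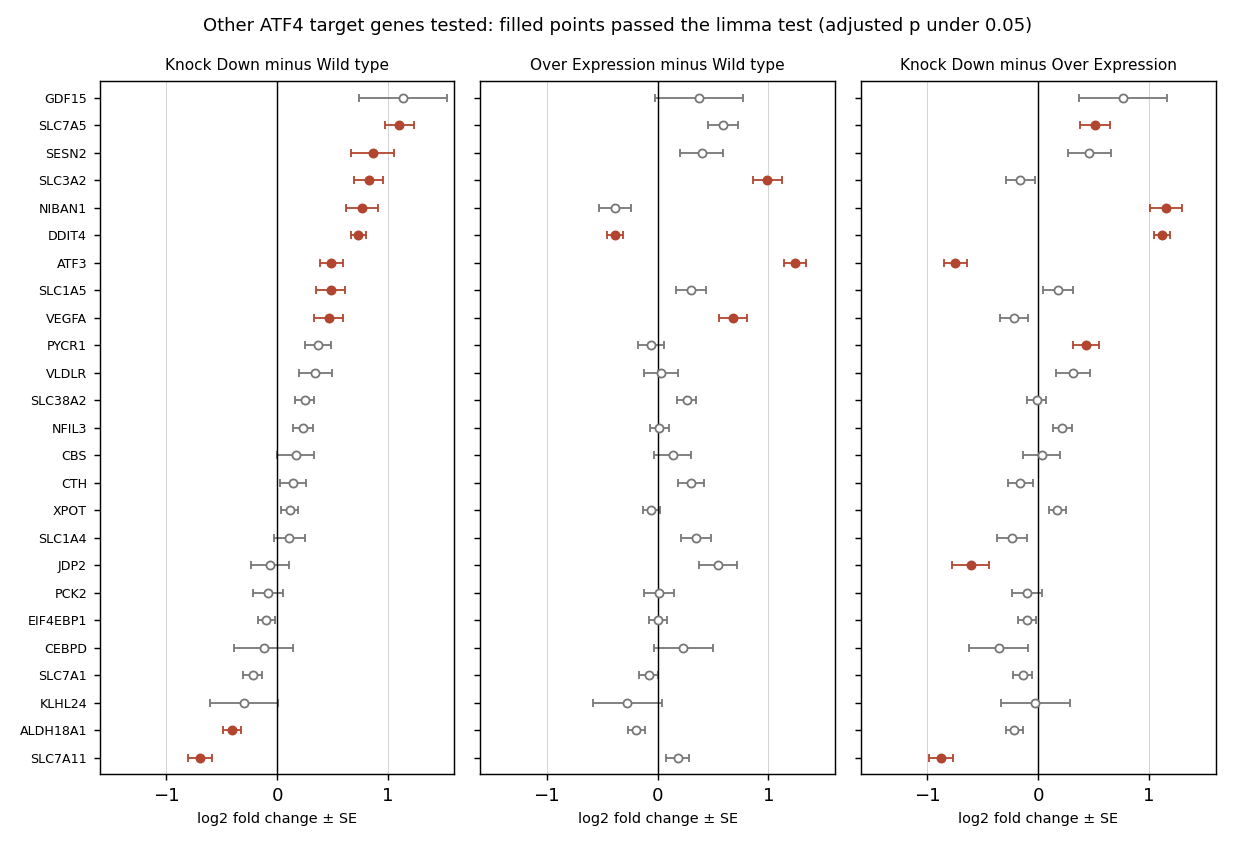
Log2 fold change with its standard error for the 25 tested genes of the list of other ATF4 targets, ordered by Knock Down against Wild type, with filled points for limma calls at an adjusted p under 0.05. The 8 higher and 2 lower calls of the first panel stand against 3 higher and 1 lower in Over Expression against Wild type, and DDIT4 and NIBAN1 lie on opposite sides of 0 in those panels.

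For the other 3 lists the shares are set against the 8.89% of all probe sets that were lower in Knock Down than in Wild type cells and the 8.76% lower than in Over Expression cells. Aminoacyl-tRNA synthetases charge tRNAs, and some of them are ATF4 targets. Of 17 tested, 2 (11.8%) were lower in Knock Down than in Wild type cells (FARSB, log2 change -0.39, and KARS1, -0.29). Against Over Expression cells 3 (17.6%) were lower (WARS1, HARS1 and FARSB, from -0.28 to -0.49), and none was higher in either comparison. The next list of 11 genes held eIF2 kinases, subunits of eIF2 and of its exchange factor eIF2B, and EIF2A, which is none of these. Of the 11, 2 were lower and none higher in each Knock Down comparison (18.2%). EIF2B2 gave 7465, 7050.5 and 6939 in Knock Down cells, 11990.2, 10056 and 9873 in Over Expression cells, and 10631, 11056 and 9857 in Wild type cells. EIF2B2 was 1.47-fold lower in Knock Down than in Wild type cells (log2 change -0.56, SE 0.09, limma adjusted p = 0.00329) and EIF2S3, the gamma subunit of eIF2, was lower too (log2 change -0.29, limma adjusted p = 0.0208). Against Over Expression cells EIF2B2 and EIF2B1 were lower in Knock Down cells, with log2 changes of -0.57 and -0.37. Of 58 other tested genes of ER folding, translocation and degradation, 1 was higher and 11 were lower in Knock Down than in Wild type cells (20.7% in both directions, against 15.7% of all probe sets), and 1 was higher and 8 lower than in Over Expression cells (15.5%, against 14.5%). EDEM2, a relative of EDEM1, gave 1256, 1187 and 1214 in Knock Down cells, 1882, 1607 and 1672 in Over Expression cells, and 1840.0, 1999.9 and 1901 in Wild type cells. EDEM2 was 1.57-fold lower in Knock Down than in Wild type cells (log2 change -0.65, SE 0.11, limma adjusted p = 0.00373), next to MBTPS2, a protease that activates ATF6 (log2 change -0.66, limma adjusted p = 0.00226), and DNAJC10, an ER reductase (log2 change -0.50, limma adjusted p = 0.00451). DNAJC1, a membrane J-domain protein, was the 1 gene higher than in Wild type cells (log2 change 0.47, limma adjusted p = 0.00175). Between Knock Down and Over Expression cells the smallest p of this list were those of BET1, a SNARE of ER-to-Golgi transport, CREB3, a membrane-bound transcription factor, and SELENOS, a selenoprotein of the degradation complex, with log2 changes of -0.59, -0.55 and -0.38. In Over Expression against Wild type cells none of these 3 lists had a call by limma.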

How the data were processed

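The deposited values are linear intensity signals of 54675 probe sets on 9 arrays, made by the authors with MAS5, per the submitters' processing notes (version not given in the sources used here). Every array had the same mean signal of 1500.2 after its highest and lowest 2% were trimmed, so a change in total RNA cannot be seen. Array images and detection calls were not used.

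Signals were taken as log2(signal + 1), the scale of all fold changes and standard errors. Without the 62 controls, the 27307 probe sets whose mean reached the median (7.56 in log2, a signal of 188) entered 1 two-sided limma fit of all 9 arrays (limma version 3.58.1, R version 4.3.3, eBayes with trend, residual degrees of freedom 6). Adjusted p are Benjamini-Hochberg values over these probe sets, with a threshold of 0.05. The fit was tested on simulated data. The number of arrays limits the precision.

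Symbols come from the platform's annotation table (41091 probe sets with 1 symbol, 1801 with several and 11721 with none, controls left out). The members, gene lists, tests and alternatives were chosen with earlier results of these data known. Values in every array are given for members past the threshold and for those the pathways start from. Of each list, up to 4 genes of smallest p past the threshold are named in each comparison, as far as the prose gives them, and ATF3 in Knock Down against Wild type cells, CALR, DNAJB11, PSAT1 and other members given by range were chosen after their values were seen.

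Whether replicate numbers pair the arrays was checked by correlating deviations from the group means. Arrays of the same number gave 0.36, 0.14 and 0.14 between Knock Down and Wild type, 0.35, 0.24 and 0.11 between Knock Down and Over Expression, and 0.45, 0.16 and 0.083 between Over Expression and Wild type. The first 2 sets exceed 0.1 throughout, so blocked values are given mainly for those comparisons. Crossed pairs, a replicate 2 with a replicate 3 array, gave 0.18 and 0.029 between Knock Down and Wild type. They gave 0.089 and 0.057 between Knock Down and Over Expression, and 0.28 and 0.095 between Over Expression and Wild type. Since some crossed pairs exceed same-numbered ones, the check does not settle whether replicates 2 and 3 are paired. Alternatives were an offset of 16, no limit on dim probe sets, quantile normalization, the mean of a gene's probe sets, a term for the replicate 1 arrays, the replicate block, replicates 2 and 3 alone, and each array left out. Promoters are from RefSeq (GRCh38.p14). Figures were drawn with matplotlib 3.10.9.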

Additional observations from a re-analysis of the deposited data

How the results depend on the processing

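The 18 member calls kept their direction in all 234 alternative values. No limit on dim probe sets, the term for the replicate 1 arrays and the replicate block leave each log2 change as in the main fit. Direction could not change there, nor with the mean of probe sets where a gene has 1 tested probe set. Of the 126 values from settings that left out no single array, 117 stayed past the threshold, as did 65 of the 108 from fits that left out 1 array. The calls of ASNS and SEL1L in both Knock Down comparisons, of SHMT2 against Wild type cells, and of CEBPB and ERN1 against Over Expression cells stayed past it in every fit that left out 1 array. Counts moved more. ATF4 arm calls in Over Expression against Wild type cells were 1, but 5 with the term for the replicate 1 arrays, 5 with the replicate block, 2 in replicates 2 and 3 alone, 2 with the mean of a gene's probe sets, and 0 to 1 with 1 array left out. Of everything tested, 0.476% passed in the main fit and 4.06% with the term. In replicates 2 and 3 alone 0.806% did, and with the mean of probe sets 0.843%. The ER chaperone arm had 0 calls in that comparison and 1 with the term or the block. That block, under which 3.74% of all probe sets passed, added ASNS, CEBPB, HERPUD1 and CHAC1 (higher) and ALDH1L2 (lower), but the replicate 3 arrays of those groups did not reach the bound for pairing. In Knock Down against Wild type cells the ER chaperone arm's 2 calls became 7 with the term, 6 with the block, 5 in replicates 2 and 3 alone and 5 with the mean of probe sets. They became 1 with no limit on dim probe sets, and 1 to 3 with 1 array left out. The ATF4 arm's 5 became 6, 6, 5, 7 and 4 in the same settings, and 2 to 5 with 1 array left out. Of everything tested, 28.2%, 28.0%, 19.1%, 21.1% and 5.87% passed in these settings, against 15.7% in the main fit. In Knock Down against Over Expression cells each arm had 5 calls, where 14.5% of everything tested passed. The ATF4 arm had 6 with the term, 7 with the block, 6 in replicates 2 and 3 alone and 6 with the mean of probe sets. The ER chaperone arm had 7, 7, 6 and 6 in the same settings, in which 27.2%, 26.9%, 18.0% and 19.6% of everything tested passed. Leaving out 1 array gave 2 to 4 ATF4 arm and 2 to 5 ER chaperone arm calls. Arm medians of -0.05 and -0.04 in Knock Down against Wild type cells became 0.0670 and 0.0132 with the mean of probe sets, and the ATF4 arm's ran from -0.0537 to 0.0351 with 1 array left out. The ATF4 arm's median of -0.18 between Knock Down and Over Expression cells was -0.25 in replicates 2 and 3 alone and -0.23 to -0.11 with 1 array left out. The ER chaperone arm's 0.03 was -0.0184 after quantile normalization, -0.0483 in replicates 2 and 3 alone, -0.0146 with the mean of probe sets, and -0.0911 to 0.0957 with 1 array left out, so its sign is not settled. The cause of these shifts was not tested. Beyond the calls named in the report, the replicate block changed no other call of a member in the Knock Down comparisons. Dim members such as NUPR1 are limited by signal near background.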
